A study of Homo sapiens with 6 samples.

Results

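Host genes of microRNAs and of small nucleolar RNAs (snoRNAs) were compared between OV2008 cells given a miR-328-3p mimic and OV2008 cells given a negative control microRNA, labelled NC. They are long transcripts whose introns or exons carry small RNAs. Members were chosen by gene symbol, under a rule set with earlier results of these data known. The symbols were of the form MIR…HG or SNHG followed by a number, together with GAS5, DANCR, ZFAS1 and EPB41L4A-AS1. Only probe sets annotated with exactly 1 symbol were used. This gave 20 genes of 22465, namely 6 snoRNA hosts and 14 microRNA hosts, each with 1 probe set. GAS5, ZFAS1 and hosts annotated together with their small RNAs shared a probe set with other symbols and were not analysed here by name.

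RNA was collected 3 days after transfection and hybridised to whole-transcript arrays, 3 per group, from 100 ng of total RNA each. The established human line OV2008 carries the label ovarian cancer, and a cervical origin has been reported for it elsewhere. For the mimic samples, title and source name give the mimic whereas the description gives the control, and the first 2 labels were followed. The labels do not say whether the samples were separate cultures, so p-values reflect spread among these arrays, possibly only technical spread. In such bulk RNA, fewer cells of a kind and less RNA per cell cannot be told apart. Array medians lay between 4.14 and 4.17 in the mimic group and between 4.10 and 4.14 in the control group on the log2 scale. Means of 8 ovarian markers ran from 3.16 to 7.02 on mimic arrays (median 4.03) and from 3.18 to 7.36 on control arrays (median 4.10). PAX8 and WT1 were near the array medians, FOLR1 at 5.69 on mimic arrays and 5.698 on control arrays was above them, and ESR1, the highest, fell. Means of the 5 squamous markers measured ran from 5.45 to 16.995 on mimic arrays (median 13.28) and from 5.14 to 17.03 on control arrays (median 13.40). KRT5 was the highest and KRT14 the lowest of these, and DSG3 fell by 0.88.

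A microRNA host gene is transcribed as a long primary transcript from which Drosha cuts a hairpin, and Dicer turns the hairpin into the mature microRNA. A snoRNA is trimmed out of an excised intron of its host, after which the spliced exons are exported and often degraded quickly by nonsense-mediated decay. Box H/ACA snoRNAs guide pseudouridylation of ribosomal RNA, and their Cajal body relatives do so for spliceosomal RNAs. Many snoRNA host transcripts begin with a terminal oligopyrimidine tract, a start that they share with ribosomal protein mRNAs. Host transcript and small RNA can therefore differ in abundance although they come from the same transcription unit.

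The transfected microRNA is shown with the mature microRNAs that RefSeq places in the host genes that fell, since these are the small RNAs such hosts encode. Sequences are from RefSeq on GRCh38.p14, 5′ to 3′, with the seed (bases 2 to 8) in capitals.
miR-328-3p (chr16:67202327-67202348, minus strand): cUGGCCCUcucugcccuuccgu
miR-31-5p, in MIR31HG: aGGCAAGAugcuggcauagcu
miR-924, in MIR924HG: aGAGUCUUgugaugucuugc
miR-5583-3p, in MIR924HG: gAAUAUGGguauauuaguuugg
miR-5583-5p, in MIR924HG: aAACUAAUauacccauauucug
miR-4449, in DANCR: cGUCCCGGggcugcgcgaggca
The RefSeq tables placed 44 mature microRNAs in 13 of the host genes, with 36 distinct seeds. None of the 44 had the seed of miR-328-3p, which 1 of all 2545 mature entries carries, miR-328-3p itself.

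Windows around the RefSeq start sites of the 5 host genes that fell are shown because these genes moved in the same direction. Each has 50 bases before and 50 bases after the start, and the first 8 transcribed bases are in capitals. SNHG33 has 2 listed starts, of which the more upstream is given.
MIR31HG (chr9:21559749-21559848, minus strand): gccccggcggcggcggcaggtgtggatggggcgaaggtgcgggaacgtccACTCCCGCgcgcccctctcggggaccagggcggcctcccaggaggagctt
DANCR (chr4:52712344-52712443, plus strand): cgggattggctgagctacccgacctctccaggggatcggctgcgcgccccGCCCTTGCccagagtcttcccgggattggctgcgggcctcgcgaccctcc
MIR924HG (chr18:39751946-39752045, minus strand): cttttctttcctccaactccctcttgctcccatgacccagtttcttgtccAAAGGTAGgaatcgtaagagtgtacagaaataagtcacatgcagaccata
SNHG33 (chr3:183447558-183447657, plus strand): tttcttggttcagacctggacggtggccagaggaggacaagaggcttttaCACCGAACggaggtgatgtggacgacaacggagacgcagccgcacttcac
SNHG21 (chr15:82750514-82750613, plus strand): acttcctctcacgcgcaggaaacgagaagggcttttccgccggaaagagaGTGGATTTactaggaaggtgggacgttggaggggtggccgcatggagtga
The first 8 transcribed bases held 6 pyrimidines in MIR31HG and DANCR, 4 in SNHG21 and 1 in MIR924HG. In SNHG33 they held 4 at the start shown and 6 at the other start. Hosts that gave no call also had starts with at least 6, namely MIR100HG, MIR3976HG, MIR99AHG and SNHG17. In all, 8 of 29 host gene windows had at least 6, beside 17.6% of 35116 promoters in the table. A link between these letters and the falls was not tested. The E-box CACGTG, searched on both strands over 300 bases, was in none of the 29 windows listed for 17 of the host genes and in 7.26% of all promoters. The cAMP response element TGACGTCA was likewise in none of these windows, against 1.85% of all promoters, and TGATGNAAT, the core of ATF4 response elements, was found in MIR99AHG alone, in 2 overlapping windows, against 0.991%. The letters complementary to the miR-328-3p seed, AGGGCCA, were in none of the first 50 transcribed bases of these starts, against 0.41% of all promoters. The rest of the transcripts was not searched.

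In the mimic arrays MIR31HG, DANCR, MIR924HG, SNHG33 and SNHG21 fell, and no host gene rose. Of the 20 genes, 17 passed the filter on low signal and were tested, and 5 of these (29.4%) passed an adjusted p of 0.05 in limma (Benjamini-Hochberg, computed across the whole table of probe sets). Of 18836 genes tested in the whole table, 18.0% passed, with 10.8% that fell and 7.21% that rose. Of 1295 RefSeq long noncoding RNA genes tested, 3.17% fell and 2.24% rose, but the median of their mean signals was 4.17, against 5.49 for the host genes. At an unadjusted p under 0.05, 8 of the 17 host genes were lower and 2 were higher, where 18.1% of all genes tested were lower and 13.8% were higher. The count of 5 became 3 without control array 3 and without mimic array 2.

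**Figure D1:**
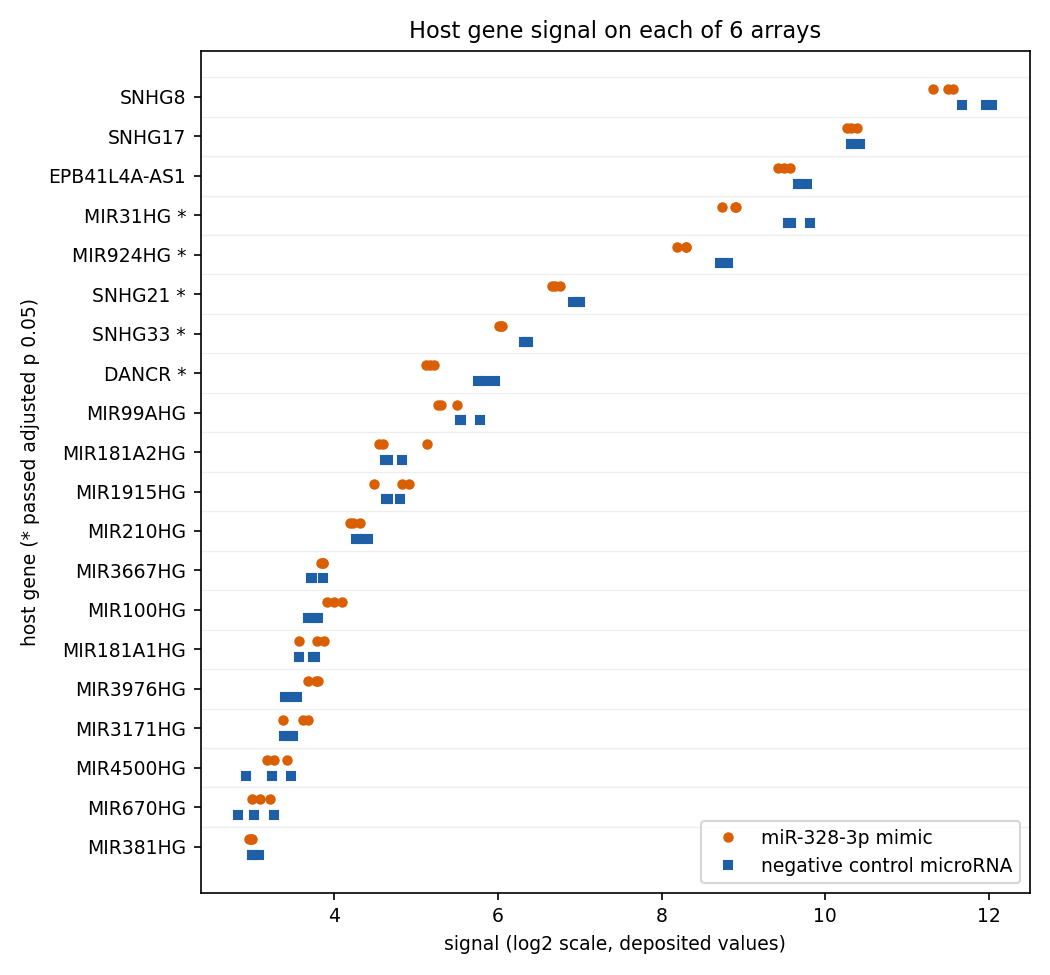
Signal of 20 host genes (rows, ordered by control mean) on 6 arrays, on the log2 scale of the deposited values. Circles are the 3 miR-328-3p mimic arrays and squares the 3 negative control arrays, and an asterisk marks the 5 genes that passed an adjusted p of 0.05. In MIR31HG, DANCR and MIR924HG the circles lie clearly left of the squares, and most microRNA hosts sit at the low end with the groups mixed.

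The microRNA host with the largest difference was MIR31HG, which holds miR-31 and has been described as a repressor of the cell cycle inhibitor p16 and as a partner of HIF1A. Its signal was 8.90, 8.91 and 8.74 on the mimic arrays, against 9.82, 9.54 and 9.58 on the control arrays. The groups did not overlap, and the gap between them was wider than the spread within either. MIR31HG was 1.74-fold lower on this scale (log2 difference -0.80 ± 0.0881 SE, limma adjusted p = 0.00247), and in 6 fits that each lacked 1 array its adjusted p lay between 0.00478 and 0.0125.

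The probe set of the MIR31 hairpin itself behaved otherwise. It read 6.32, 6.18 and 6.25 on the mimic arrays, against 6.31, 6.29 and 6.31 on the control arrays. The groups overlapped, and the difference of -0.05 did not pass (limma adjusted p = 0.688). IFNE, the gene of interferon epsilon, an interferon of reproductive tract epithelium, lies inside MIR31HG on the same strand. IFNE read 8.86, 9.12 and 8.83 on the mimic arrays, against 9.55, 9.86 and 9.80 on the control arrays, and fell by 0.80 (limma adjusted p = 0.00544). Because the genes overlap, signal from one transcript in the probe set of the other cannot be told apart. IFNA1, the neighbour on one side, differed by 0.27 and did not pass. MTAP on the other side, a methionine salvage enzyme, averaged 11.72 ± 0.1088 on mimic arrays and 11.98 ± 0.0556 on control arrays (SD, n = 3 each) and did not pass (limma adjusted p = 0.0506).

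MIR924HG, a long transcript that holds miR-924 and miR-5583, read 8.30, 8.29 and 8.19 on the mimic arrays, against 8.71, 8.81 and 8.75 on the control arrays. All mimic arrays were below all control arrays. It was 1.41-fold lower (log2 difference -0.50 ± 0.0543 SE, limma adjusted p = 0.00239), and its adjusted p stayed between 0.00812 and 0.0156 on leaving out any 1 array. The nearest protein-coding gene on one side, at whatever distance, was PIK3C3, which encodes the class III phosphatidylinositol 3-kinase of autophagy. PIK3C3 was slightly higher, at 12.26 ± 0.0340 on mimic arrays and 12.08 ± 0.0547 on control arrays (SD, n = 3 each, limma adjusted p = 0.0474). CELF4, the nearest on the other side, did not pass, at a difference of 0.03.

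The other 12 microRNA hosts gave no call, and 3 of them, MIR381HG, MIR4500HG and MIR670HG, lay under the filter, with means between 2.98 and 3.28 on mimic arrays and between 3.02 and 3.21 on control arrays. The 23 background probe sets of the arrays had medians of 2.80 to 2.89 on mimic arrays and 2.85 to 2.92 on control arrays. These 3 hosts thus lay near the background level.

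MIR100HG and MIR99AHG carry sister clusters, in which the same microRNA families follow one another. Their members are shown to make the shared seeds visible.
miR-100-5p, in MIR100HG: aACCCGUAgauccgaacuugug
miR-99a-5p, in MIR99AHG: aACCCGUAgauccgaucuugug
let-7a-5p, in MIR100HG: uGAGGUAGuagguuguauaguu
let-7c-5p, in MIR99AHG: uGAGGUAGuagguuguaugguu
miR-125b-5p, in both: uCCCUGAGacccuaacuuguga
MIR100HG read 3.999, 4.09 and 3.91 on the mimic arrays, against 3.75, 3.80 and 3.68 on the control arrays, a difference of 0.26 (limma adjusted p = 0.0844). MIR99AHG read 5.27, 5.502 and 5.31 on the mimic arrays, against 5.54, 5.55 and 5.78 on the control arrays, a difference of -0.26 (limma adjusted p = 0.172). In both genes the groups did not overlap, yet neither passed, and MIR100HG lies below the array medians.

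MIR3976HG had the largest positive difference of the host genes tested. It read 3.77, 3.80 and 3.68 on the mimic arrays, against 3.39, 3.49 and 3.55 on the control arrays, a difference of 0.27 at a low signal (limma adjusted p = 0.0592). MIR210HG, the host of the hypoxia-induced miR-210, read 4.19, 4.31 and 4.23 on the mimic arrays, against 4.32, 4.26 and 4.41 on the control arrays. These groups overlapped, and the 95% interval of the difference ran from -0.27 to 0.09. The MIR210 hairpin differed by -0.07, which did not pass either.

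Among the remaining low hosts, MIR181A1HG and MIR181A2HG hold paralogous clusters of the miR-181 family, known from lymphocyte development. Their differences were both 0.05, with 95% intervals from -0.20 to 0.29 and from -0.35 to 0.46. In MIR181A2HG mimic array 2 stood above all other arrays, at 5.14. MIR1915HG differed by 0.04, MIR3667HG by 0.08 and MIR3171HG by 0.11, with overlapping groups in each.

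**Figure D2:**
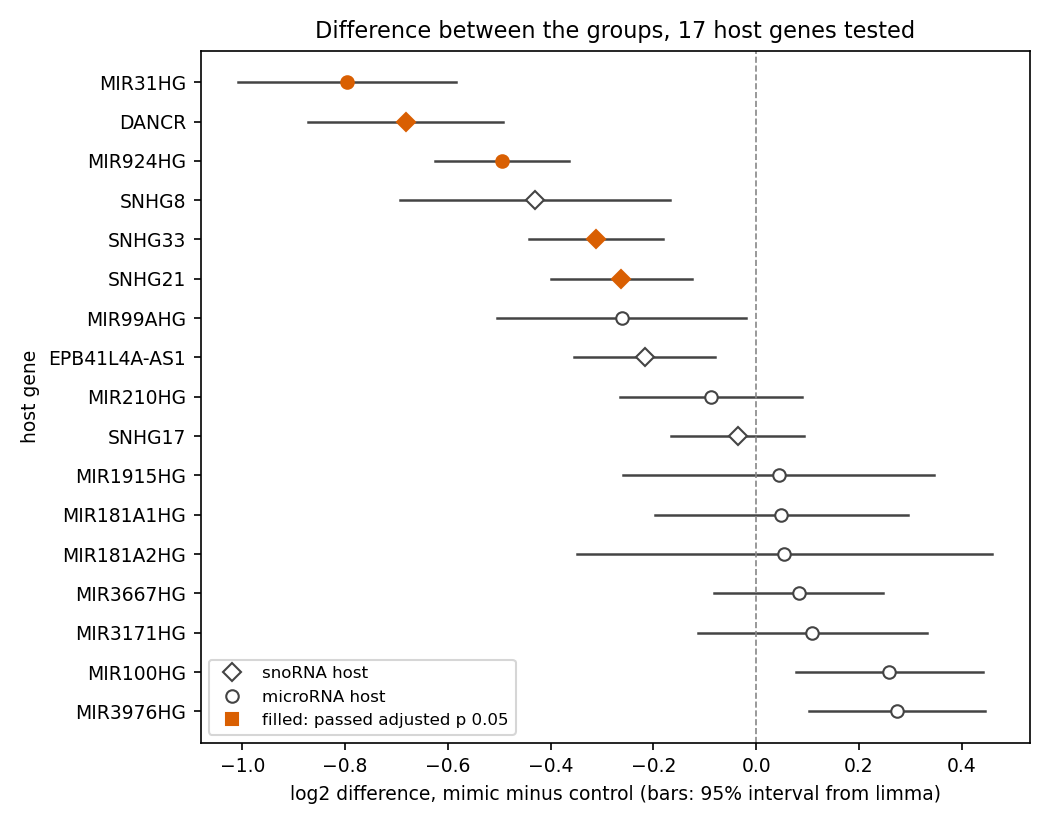
Log2 difference, mimic minus control, of the 17 host genes tested, with 95% intervals from limma as bars. Diamonds are snoRNA hosts, circles microRNA hosts, and filled symbols passed an adjusted p of 0.05. All 6 snoRNA hosts lie left of 0, from -0.68 for DANCR to -0.04 for SNHG17, while 7 of 11 microRNA hosts lie right of it.

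The snoRNA hosts lay to the negative side. Of 6 tested, 3 fell, none rose and 3 did not pass, beside 10.8% that fell and 7.21% that rose among all genes tested. No snoRNA host was higher at an unadjusted limma p under 0.05, where 13.8% of all genes tested were. The median log2 difference of the 6 snoRNA hosts was -0.29, against 0.05 over the 11 microRNA hosts tested and 0.01 over all genes tested. The difference between the 2 kinds of host was not tested. In 14 further snoRNA host probe sets, shared with small RNAs and tested, the median was -0.03, and 1 rose and 2 fell. The negative side thus holds for the 6 hosts only. Without mimic array 2 the microRNA hosts had a median of -0.04.

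DANCR, a host of SNORA26 known for holding epidermal progenitors in an undifferentiated state, had the largest fall among them. It read 5.12, 5.16 and 5.22 on the mimic arrays, against 5.84, 5.75 and 5.97 on the control arrays. The groups stood well apart, and DANCR was 1.605-fold lower (log2 difference -0.68 ± 0.0789 SE, limma adjusted p = 0.00286). In the 6 fits that each lacked 1 array its adjusted p lay between 0.00826 and 0.0177. SNORA26 read 8.04, 7.996 and 7.91 on the mimic arrays, against 8.74, 7.99 and 8.26 on the control arrays. Those groups overlapped through control array 2, and the difference of -0.34 did not pass (limma adjusted p = 0.312). The MIR4449 hairpin in the same gene differed by -0.02.

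SNHG33, which holds copies of SNORA63, read 6.04, 6.01 and 6.04 on the mimic arrays, against 6.31, 6.35 and 6.36 on the control arrays. The replicates were tight and the groups apart, and SNHG33 fell by 0.31 (limma adjusted p = 0.0142). Its adjusted p was 0.062 without control array 3 and 0.0645 without mimic array 2. The neighbouring gene MCF2L2, a guanine nucleotide exchange factor, averaged 5.28 ± 0.0180 on mimic arrays and 5.69 ± 0.0454 on control arrays (SD, n = 3 each) and fell (limma adjusted p = 0.00839). KLHL6, on the other side, differed by 0.05 and did not pass (limma adjusted p = 0.764).

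SNHG21, the host of the Cajal body RNA SCARNA15, read 6.76, 6.69 and 6.66 on the mimic arrays, against 6.92, 6.999 and 6.98 on the control arrays. It fell by 0.26 (limma adjusted p = 0.0322), with no overlap between groups. Each of the 6 fits that lacked 1 array lost the call. The adjusted p was lowest, 0.0538, when control array 1 was missing and highest, 0.111, when mimic array 2 was. SCARNA15 read 6.71, 6.52 and 6.67 on the mimic arrays, against 7.21, 6.84 and 6.81 on the control arrays, a difference of -0.32 that did not pass (limma adjusted p = 0.168).

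SNHG8, the host of SNORA24 and the member with the highest signal, lay just outside the threshold. It read 11.50, 11.32 and 11.56 on the mimic arrays, against 11.68, 11.96 and 12.04 on the control arrays. No mimic array reached the lowest control array, and the difference was -0.43 ± 0.109 SE (limma adjusted p = 0.054). SNHG8 passed without control array 1, which was nearest to the mimic arrays (adjusted p = 0.0172), and when arrays were centred on their medians (0.0382). SNORA24 read 16.15, 16.03 and 15.99 on the mimic arrays, against 16.25, 16.42 and 16.24 on the control arrays, a difference of -0.24 (limma adjusted p = 0.0702). PRSS12, the gene of the protease neurotrypsin next to SNHG8, averaged 8.10 ± 0.0268 on mimic arrays and 8.71 ± 0.0588 on control arrays (SD, n = 3 each) and fell (limma adjusted p = 0.0009).

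EPB41L4A-AS1, the host of SNORA13, read 9.56, 9.42 and 9.50 on the mimic arrays, against 9.68, 9.78 and 9.67 on the control arrays. The groups did not overlap, but the difference of -0.22 did not pass (limma adjusted p = 0.0616). It passed when arrays were centred on their medians (adjusted p = 0.0307). SNORA13 differed by -0.08 with overlapping groups. The protein-coding gene EPB41L4A, whose interval overlaps that of this host, moved much further. It read 10.51, 10.68 and 10.63 on the mimic arrays, against 11.73, 11.54 and 11.66 on the control arrays, and was 2.06-fold lower (log2 difference -1.04 ± 0.0677 SE, limma adjusted p = 0.000394).

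SNHG17 was the snoRNA host with the smallest difference. It read 10.39, 10.26 and 10.31 on the mimic arrays, against 10.32, 10.43 and 10.32 on the control arrays, so the groups were mixed, and the 95% interval of the difference ran from -0.17 to 0.09. It holds 4 named copies of SNORA71, a guide of ribosomal RNA pseudouridylation, and 2 of these fell. SNORA71A read 16.01, 15.97 and 15.86 on the mimic arrays, against 16.37, 16.16 and 16.25 on the control arrays (limma adjusted p = 0.0309). SNORA71C read 15.33, 15.31 and 15.25 on the mimic arrays, against 15.47, 15.46 and 15.45 on the control arrays (limma adjusted p = 0.0374). In neither did the groups overlap. SNORA71B at -0.02 and SNORA71D at 0.05 did not pass, and since these are paralogous copies that may share probes, all 4 values are uncertain.

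**Figure D3:**
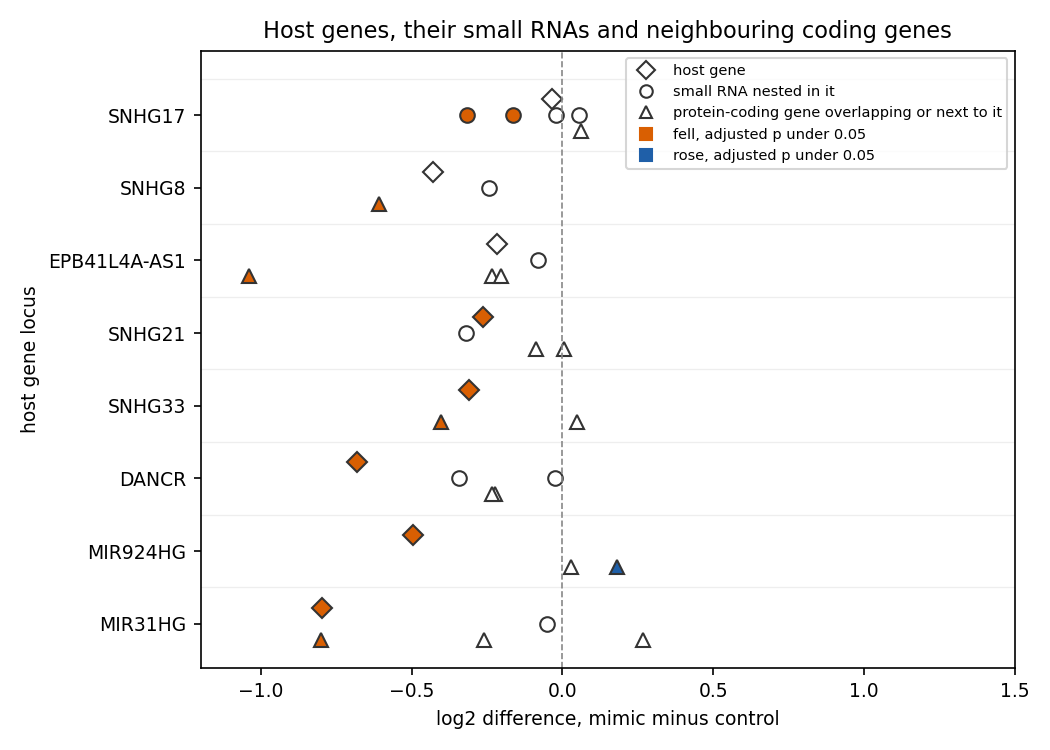
Log2 difference, mimic minus control, at 8 host gene loci. Diamonds are host genes and circles the small RNAs nested in them. Triangles are protein-coding genes that overlap them or are the nearest on either side, at any distance. Orange marks genes that fell and blue genes that rose at an adjusted p under 0.05. MIR31HG and IFNE lie together near -0.80 with the MIR31 hairpin near 0, and SNHG17 stands near 0 with SNORA71A and SNORA71C below it.

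Over all host genes, RefSeq placed 42 small RNA genes inside them, 28 microRNAs, 13 snoRNAs and 1 small Cajal body RNA. Intervals alone were used, so MIR5583-1, on the strand opposite to MIR924HG, is counted too. Of the 42 small RNA genes, 30 had a probe set of their own and 19 passed the filter. None rose, 2 fell and 17 did not pass in limma. The 10.5% that fell is close to the 10.8% among all genes. At an unadjusted p under 0.05 none was higher and 4 were lower, beside 13.8% and 18.1% of all genes. Their median difference was -0.07. Whether these probe sets measured the mature small RNAs, their precursors or host transcript was not tested.

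Over all host genes tested, the 3 mimic arrays lay entirely below the 3 control arrays in 8 of 17 (47.1%), against 22.4% of all genes tested, and entirely above them in 2, against 19.2%. An exact permutation test of 3 arrays against 3 cannot give a p below 0.1 and was not used. The 5 host genes that fell all had a mean signal of at least 5, as did 4 that did not pass, SNHG8, EPB41L4A-AS1, SNHG17 and MIR99AHG. That level was chosen after the values were seen, so the count supports nothing by itself. Among genes at that level 18.0% fell, and among long noncoding RNA genes at that level 10.4%.

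**Figure D4:**
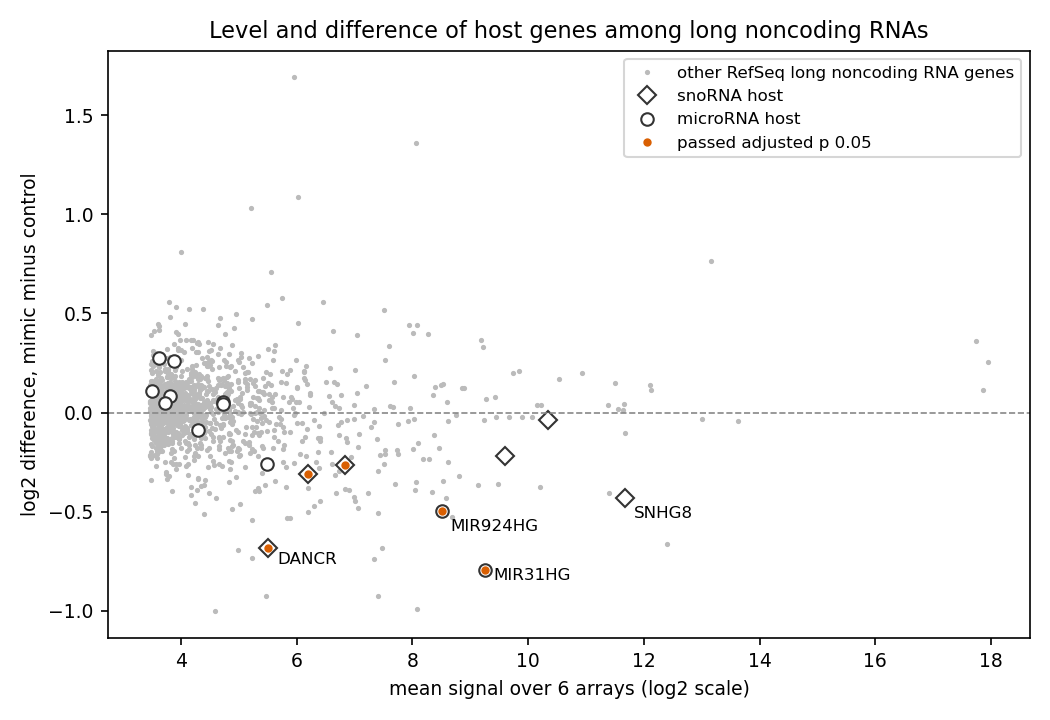
Mean signal over 6 arrays against log2 difference, mimic minus control. Grey points are other RefSeq long noncoding RNA genes tested, diamonds snoRNA hosts and circles microRNA hosts, with an orange dot where the adjusted p was under 0.05. The 5 host genes that fell all have means above 5 and differences from -0.80 to -0.26.

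Most transcripts of the machinery that makes or uses these small RNAs did not pass the test. Among microRNA processing and Argonaute genes, 14 of 20 listed were tested, of which 2 rose (14.3%), 3 fell (21.4%) and 9 did not pass, with a median difference of 0.01. Of all genes tested, 7.21% rose and 10.8% fell. DICER1, the nuclease that makes mature microRNAs from hairpins, averaged 12.14 ± 0.0157 on mimic arrays and 11.11 ± 0.0528 on control arrays (SD, n = 3 each), and was higher by 1.02 (limma adjusted p = 9.69e-05). SRRT, a cap-binding partner of the microprocessor, rose by 0.32. TNRC6B, an Argonaute-bound silencing protein, fell by 0.50, the Dicer partner PRKRA by 0.36 and the helicase DDX17 by 0.35.

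Among 18 snoRNP proteins and assembly factors tested, 1 rose (5.56%), 3 fell (16.7%) and 14 did not pass, with a median of -0.04. The assembly factor ZNHIT3 fell by 0.51, the cap hypermethylase TGS1 by 0.34 and the AAA ATPase RUVBL1 by 0.33, whereas its partner RUVBL2 rose by 0.30. Of 17 nonsense-mediated decay genes tested, 2 rose, 2 fell (11.8% each) and 13 did not pass. The release factor GSPT1 rose by 0.33 and the kinase SMG1 by 0.26. The exon junction proteins RBM8A and MAGOHB fell by 0.34 and 0.23.

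Of 13 factors tested that have been reported upstream of host genes, 5 rose (38.5%) and 2 fell (15.4%), and 6 gave no call. Over all genes the shares were 7.21% and 10.8%, and the list's median difference was -0.14. This list, like the machinery lists above, was chosen with earlier results of these data known. Its shares therefore support nothing by themselves. MXD1, a MAX partner that opposes MYC, rose by 1.43, ATF4 by 0.72 and the NF-kappaB subunit RELA by 0.65. FOS fell by 1.30 and MXI1, another MAX partner, by 0.55.

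Protein-coding genes that hold small RNAs included both rises and falls. Of 398 protein-coding genes with a snoRNA inside their RefSeq interval, 48 rose, 62 fell and 288 did not pass, with a median difference of -0.003. Thus 12.1% rose and 15.6% fell, beside 8.13% and 12.8% of all protein-coding genes tested. The phosphodiesterase PDE5A fell by 1.34, the collagen COL12A1 fell by 1.29 and the carboxypeptidase PRCP fell by 1.26, the 3 largest falls. The largest rises were those of UBASH3B by 0.94, the ribonucleotide reductase subunit RRM2 by 0.84 and the kinase ABL2 by 0.83.

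Of 557 protein-coding genes with a microRNA inside on the same strand, 71 rose, 71 fell and 415 did not pass, with a median difference of 0.02. Thus 12.7% rose and 12.7% fell, beside the same 8.13% and 12.8%. The stress-induced factors GDF15 and DDIT3 rose by 2.29 and 1.35, and the transcription factor KLF7 by 1.64. The GTPase-activating protein ARHGAP24 fell by 1.66, the pyrophosphate transporter ANKH by 0.96 and the Notch ligand JAG1 by 0.84. The differences between these gene sets and the long noncoding hosts were not tested.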

How the data were processed

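The authors deposited 1 log2-scale value per probe set and array. The log base is inferred from the range of 1.62 to 19.9. Per the submitters' processing notes MAS5 was used, with no role or version, while for the background step, summarization and build the entry is: not given in the sources used here. Per the labels' protocols, biotinylated sense-strand DNA was hybridised. Deposited values were kept as they were, with no pseudocount.

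From 70523 probe sets, 2995 that are not transcript clusters were left out, then the 25% of clusters with the lowest mean (3.47 or less), which left 50646. The group comparison used limma 3.58.1 under R 4.3.3 (mean-variance trend, two-sided, Benjamini-Hochberg over all 50646, threshold 0.05), tested on simulated data. Every adjusted p is from this fit unless another setting or a left-out array is named. The brightest cluster stood for a gene. Platform symbols of all 20 host genes matched RefSeq (GRCh38.p14). Nested and neighbouring genes were found by RefSeq interval alone. A neighbour was a protein-coding gene that overlapped the host or was the nearest on either side, at any distance. The same strand was required only of microRNAs inside protein-coding genes, and strand was not available for snoRNAs. Lists describe counts and medians only, and the 3 largest rises and falls that passed are named. Members and lists were chosen with earlier results of these data known. Alternatives were median centring, quantile normalization, other filters, no trend, a replicate block and leaving out each array. Figures used matplotlib 3.10.9. Arrays have no read depth, and 3 arrays per group limit the precision.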

Additional observations from a re-analysis of the deposited data

How the results depend on the processing

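The 5 host genes called kept their direction under every alternative run. Among hosts not called, MIR181A1HG (-0.016), MIR181A2HG (-0.135) and MIR1915HG (-0.041) changed sign without mimic array 2, and MIR181A1HG (-0.014) also without control array 3. The snoRNA host SNHG17 stood at 0.000 without control array 2, and MIR1915HG at -0.000 without mimic array 3, so neither kept a clear sign. The count of 5 host genes called, all falls, was 7 with median centring, 7 with the lowest 50% left out, 4 with quantile normalization, 5 with no filter and 5 with no trend. With the replicate number as a block it was 3, all falls, with SNHG21 at an adjusted p of 0.0919 and SNHG33 at 0.0561. Deviations of same-numbered arrays from their group means correlated at 0.142, -0.0497 and 0.182. Differently numbered arrays were not compared, so these values cannot decide whether the numbers pair the samples. No host gene rose under any of these settings. Leaving out 1 array gave between 3 and 5 host genes called and as many that fell, 159 to 204 called genes on the partner and machinery lists in place of 258, and 2105 to 2704 genes in all in place of 3392. Median differences ran from -0.135 to -0.055 over host genes, -0.307 to -0.275 over snoRNA hosts and -0.041 (without mimic array 2) to 0.079 over microRNA hosts. SNHG21 also missed the threshold with quantile normalization (0.0647). SNHG8 and EPB41L4A-AS1 passed with the lowest 50% left out (0.0398 and 0.0415), where fewer probe sets are tested. No second cluster per host gene existed, so that alternative was not run. The cause of the changes between settings was not tested. Signal close to background limits what the microRNA hosts of low signal can show.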

Other observations

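Probe sets that list a host gene together with other symbols were left out of the comparison and are counted here without names. There were 34 off the alternative haplotypes, of which 29 passed the filter, and 3 rose and 5 fell, between -0.58 and 0.89 on the log2 scale with a median of -0.03. In 26 of them the other symbols are small RNAs only. Of the 14 such snoRNA host probe sets tested, 1 rose and 2 fell, and of the 8 microRNA host probe sets, 1 rose and 1 fell. Over all genes tested, 7.21% rose and 10.8% fell. The median over the 14 was -0.03, beside -0.29 over the 6 snoRNA hosts with a probe set of their own.

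Of 36 protein-coding neighbours of host genes tested, 3 rose (8.33%), 8 fell (22.2%) and 25 did not pass, with a median difference of -0.02. Among all protein-coding genes tested, 8.13% rose and 12.8% fell. The following 3 were chosen after their values were seen, for their size beside hosts that gave no call. Around MIR100HG, SORL1 averaged 7.40 on mimic arrays and 8.21 on control arrays and fell (limma adjusted p = 0.000291), while UBASH3B averaged 7.95 on mimic arrays and 7.01 on control arrays and rose (adjusted p = 0.000557). The signal of MIR4500HG itself lay under the filter. SLITRK6, the nearest protein-coding gene on one side of it, averaged 4.24 on mimic arrays and 5.10 on control arrays and fell (adjusted p = 0.00612). Neighbours were taken at any distance, so they need not lie close to the host.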
